A study of Mus musculus with 12 samples.

Results

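Notch1, Notch2, Notch3 and Notch4 (the Notch receptors), Dll1, Dll3 and Dll4 (delta ligands), Jag1 and Jag2 (jagged ligands) and Rbpj (the DNA-binding effector of the pathway) were taken by symbol from the raw count tables of the input libraries. All 10 were present among the 24525 gene symbols of the tables, and 8 of them were among the 13112 genes with enough reads to be tested. Dll4 and Jag2 were below the filter on low counts.

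The libraries came from neural stem/progenitor cells (NSPCs) of C57BL/6 mouse embryos at E14.5 (the embryonic day), grown as neurospheres, which are floating spheres of dividing progenitors. There were 3 wild type and 3 Ythdf2-/- libraries, all from passage 1 cultures in medium with 20 ng/ml EGF and 10 ng/ml bFGF, without further treatment. In the Ythdf2-/- animals, exon 1 and the adjoining 5′ UTR had been flanked by LoxP sites placed with CRISPR and removed by a ubiquitously active Cre, so every cell carried the deletion. Ythdf2 binds N6-methyladenosine (m6A) in mRNA and promotes the decay of the bound transcript, and the comparison addressed which mRNAs differ in level without it. The input libraries are fragmented mRNA set aside before the m6A antibody step. The 6 m6A-IP samples were not analysed here, and whether these transcripts carry m6A is not addressed. The study describes the replicates as biological, and the labels do not say whether each came from its own embryo.

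Notch receptors are single-pass membrane proteins that are cut when a delta or jagged ligand on a neighbouring cell pulls on them. The freed intracellular domain enters the nucleus, joins Rbpj and mastermind coactivators, and turns on genes such as those of the Hes and Hey families. In the embryonic forebrain this signal keeps radial glial progenitors undifferentiated, while the ligand Dll1 is made by cells that are moving towards neuronal fate.

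The libraries held 11029827 to 13185778 counted reads. Ythdf2 itself was at 78.9 ± 10.9 CPM in wild type and 12.5 ± 1.91 CPM in Ythdf2-/- (mean ± SD, n = 3 each), or 15.8% of the wild type level. CPM are counts scaled to a common library size with edgeR's TMM factors. Of the genes tested, 0 passed an adjusted p of 0.05 (edgeR's quasi-likelihood test with Benjamini-Hochberg adjustment), 476 had an unadjusted p under 0.05, and DESeq2 called 31. The deleted gene, Ythdf2, had the smallest adjusted p in the edgeR test, 0.0547, so even it did not pass. The wild type replicate 3 library stood apart, at 91.0 on a first principal component (74.2% of the variance) on which the others lay between -30.6 and -6.04. In it the summed level of 13 oligodendrocyte lineage markers was 5452 CPM against 1808 to 2235 CPM in the other 5, that of 12 neuronal markers was 2148 CPM against 1292 to 1517 CPM, that of 9 astroglial markers was 14051 CPM against 3221 to 9422 CPM, and that of 10 progenitor markers was 5465 CPM against 7989 to 9266 CPM. Of these 10, 6 were nonetheless at their highest in that library, Sox2 at 551 CPM among them, and 3 at their lowest, among them Nes at 264 CPM. All 10 progenitor markers were detected in every library, with Slc1a3 and Vim the highest. Reads on 4 Y-linked genes were present in wild type replicates 1 and 2 and Ythdf2-/- replicate 3 (95.1 to 173 CPM in sum) and near 0 in the other 3.

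Notch1 was the most abundant receptor, and none of the 4 receptors differed between genotypes beyond the spread of the libraries. Notch1 (chr2:26457902-26503822, minus strand, GRCm38.p6, the assembly also called mm10; 34 merged exons) was at 253, 240 and 418 CPM in wild type replicates 1 to 3 and at 289, 492 and 260 CPM in Ythdf2-/- replicates 1 to 3. Wild type replicate 3 and Ythdf2-/- replicate 2 were high, the other 4 lay close together, and the groups overlapped. The mean was 304 ± 99.5 CPM in wild type and 347 ± 127 CPM in Ythdf2-/- (SD, n = 3), and the log2 fold change was 0.19 (SE 0.33, 95% interval -0.62 to 0.999). The adjusted p was 0.999 for Notch1 and for each of the other 7 genes tested (edgeR's quasi-likelihood test with Benjamini-Hochberg adjustment). Exons of a gene on the opposite strand, 0610009E02Rik, cover 1069 bases of Notch1 exon sequence; the strand setting of the counting is not given in the sources used here, so reads of the pair could not be separated.

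Notch2 and Notch3, the receptors that share with Notch1 the maintenance of progenitors, showed one pattern in the wild type group. Notch2 (chr3:98013538-98150367, plus strand, 34 merged exons) was at 62.1, 62.7 and 153 CPM in wild type replicates 1 to 3 and at 111, 109 and 100 CPM in the Ythdf2-/- libraries. The 3 Ythdf2-/- values were close to each other and lay between the 2 low and the 1 high wild type value. The level in wild type replicate 3 was 2.45 times the mean of the other wild type libraries, and the log2 fold change over all 6 was 0.21 (SE 0.37, 95% interval -0.69 to 1.10). Notch3 (chr17:32120820-32166896, minus strand, 33 merged exons) was at 74.6, 78.5 and 157 CPM in wild type and 96.2, 130 and 102 CPM in Ythdf2-/-. Again wild type replicate 3 was the highest of the 6, at 2.04 times the mean of the other wild type libraries, and the Ythdf2-/- values lay between it and the remaining pair. Its log2 fold change was 0.08 (SE 0.32, 95% interval -0.69 to 0.85). An opposite-strand gene, Gm41568, covers 339 bases of Notch3 exons.

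Notch4, a receptor best known from blood vessel endothelium, was nearly absent. The 6 libraries held 20, 12 and 14 reads in wild type (chr17:34564286-34588543, plus strand, 30 merged exons) and 17, 23 and 15 reads in Ythdf2-/-, or 0.92 to 1.71 CPM. The groups overlapped, and the log2 fold change of 0.16 (SE 0.37) rested on 46 reads against 55. The 11 endothelial markers were as low: their summed level was 1.37 to 4.28 CPM over the 6 libraries, 9 of the 11 were under 1 CPM in every library, and Cldn5 and Sox17 had no read in any library. A count of 0 in a library allows up to 3 reads.

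**Figure D1:**
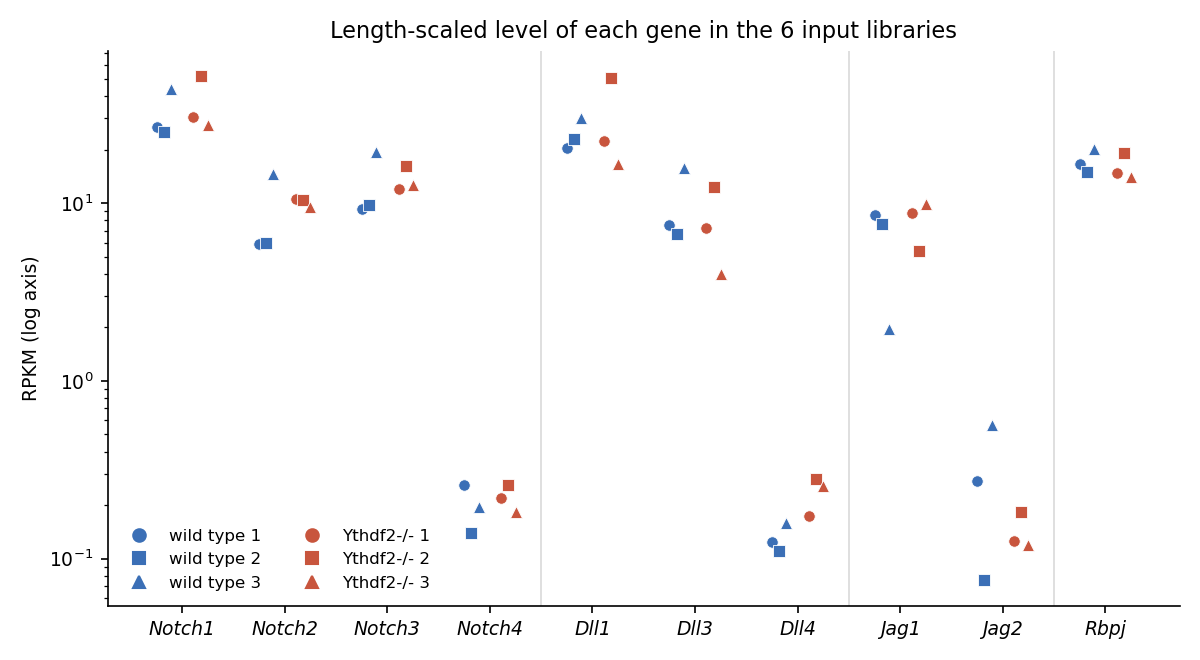
Level of each receptor, ligand and Rbpj in the 6 input libraries, as RPKM (CPM divided by exon length in kilobases, log axis). Blue symbols are wild type and red symbols Ythdf2-/-, and the symbol shape gives the replicate number. Wild type replicate 3 (blue triangle) is the highest library for Notch2, Notch3, Dll3, Jag2 and Rbpj and the lowest for Jag1. Ythdf2-/- replicate 2 (red square) is the highest for Notch1, Dll1 and Dll4.

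The highest library was 3.06 times the lowest for Dll1, 3.97 times for Dll3 and 5.05 times for Jag1, against 2.06 to 2.46 times for Notch1, Notch2 and Notch3, and none of the ligands tested passed the test between genotypes. Dll1, the delta ligand of differentiating progenitors and newborn neurons (chr17:15367354-15376932, minus strand, 12 merged exons), was at 75.7, 84.6 and 111 CPM in wild type and 82.0, 186 and 60.8 CPM in Ythdf2-/-. The Ythdf2-/- group held both the highest and the lowest value, and replicate 2 was at 2.60 times the mean of the other 2. The log2 fold change was 0.28 (SE 0.43, 95% interval -0.75 to 1.31). Dll3, a delta protein that stays inside the cell and does not activate Notch in a neighbour (chr7:28293555-28301785, minus strand, 9 merged exons), was at 16.3, 14.4 and 34.1 CPM in wild type and 15.6, 26.5 and 8.61 CPM in Ythdf2-/-. It was high in the same 2 libraries as Notch1, wild type replicate 3 and Ythdf2-/- replicate 2, and its log2 fold change was -0.35 (SE 0.50, 95% interval -1.57 to 0.87).

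Jag1 went the other way across libraries. This ligand, made by neural progenitors among other cells (chr2:137081451-137116520, minus strand, 26 merged exons), was at 46.9, 41.8 and 10.7 CPM in wild type and 48.3, 29.4 and 54.1 CPM in Ythdf2-/-. Wild type replicate 3 was the lowest of the 6, at 0.24 times the mean of the other wild type libraries, and Ythdf2-/- replicate 2 was the next lowest. The log2 fold change of 0.40 was the largest in size of the 8 genes tested and was still smaller than its SE of 0.54 (95% interval -0.91 to 1.72).

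Dll4 and Jag2 were near the limit of detection. Dll4, the delta ligand of sprouting vessels (chr2:119325784-119335666, plus strand, 11 merged exons), had 5, 5 and 6 reads in wild type and 7, 13 and 11 reads in Ythdf2-/-. In CPM these were 0.43, 0.38 and 0.55 against 0.60, 0.96 and 0.89, so the groups did not overlap, as was also so for 10.2% of all genes tested. With no filter on low counts, the edgeR log2 fold change of Dll4 was 0.86 (SE 0.47, adjusted p = 0.996), on 16 reads against 31, a few per library. A gene on the opposite strand, Gm14207, covers 217 bases of its exons and had 3 reads in all. Jag2 (chr12:112907803-112929812, minus strand, 26 merged exons) had 13, 4 and 25 reads in wild type and 6, 10 and 6 reads in Ythdf2-/-, and the groups overlapped. Its highest library was again wild type replicate 3, at 3.23 times the mean of the other wild type libraries, and its log2 fold change without the filter was -1.03 (SE 0.70, adjusted p = 0.996 in edgeR).

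Rbpj, to which the cleaved receptor binds on DNA, had the smallest range of the 10, with the highest library at 1.44 times the lowest. It (chr5:53555779-53657445, plus strand, 14 merged exons) was at 98.9, 88.8 and 121 CPM in wild type and 87.7, 113 and 83.8 CPM in Ythdf2-/-. The groups overlapped, and the log2 fold change was -0.11 (SE 0.18, 95% interval -0.55 to 0.32). This interval was the narrowest of the 8.

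Promoter sequence was searched because Dll1, Dll3 and Jag1 differed so much among libraries. The letters CAGCTG, an E-box of the kind bound by proneural factors, were looked for on both strands from 250 bases before to 50 after each start in the RefSeq promoters of GRCm38.p6. The 10 genes had 12 entries, and those of 3 genes held the letters, against 16.3% of 32851 promoters. The 3 windows of 30 bases are shown on the gene's strand with the E-box in capitals, to let the sites be compared; the search was chosen after the values were seen.
Dll1, chr17:15377047-15377076, minus strand: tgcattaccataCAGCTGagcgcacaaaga
Dll3, chr7:28301775-28301804, minus strand: tccggcatccagCAGCTGcgactcctgaga
Jag1, chr2:137116585-137116614, minus strand: ccgcgtttcatgCAGCTGatctgaaaggga
The E-box began 132 bases before the start of Dll1, 82 before that of Jag1 and 7 before that of Dll3. The same search with TGGGAA, the core letters of an Rbpj site, found them in 25.6% of promoters and, among the 10 genes, only for Rbpj, on each strand once. Both Rbpj windows belong to a start inside the gene's span (chr5:53555779-53657445), not to one at its first base.
Rbpj, chr5:53590185-53590214, plus strand: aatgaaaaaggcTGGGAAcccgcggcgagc
Rbpj, chr5:53590269-53590298, plus strand, TGGGAA on the other strand: gacgctcgcattTTCCCAggacccctcctc
These matches describe the letters in the windows and were not tied to any binding measurement.

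Per length of exon, the order of the receptors was the same in all 6 libraries. Mean RPKM over the libraries was 34.3 for Notch1, 13.2 for Notch3, 9.48 for Notch2 and 0.209 for Notch4. Notch1 was 2.17 to 3.22 times Notch3 within a library, Notch3 1.13 to 1.63 times Notch2, and Notch2 at least 22.8 times Notch4. Notch3 and Notch2 were the neighbours nearest to each other, and their order still held in 6 of 6 libraries. Among the ligands Dll1 was at 27.1 RPKM, Dll3 at 8.90, Jag1 at 7.01, Jag2 at 0.224 and Dll4 at 0.184. Dll1 was above Jag1 in 6 of 6 libraries, but Jag1 was above Dll3 in only 4 of 6 and Jag2 above Dll4 in only 2 of 6, so neither of these pairs has a fixed order. Rbpj was at 16.6 RPKM, below Dll1 in every library.

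By the raw counts, Notch1 made up the larger part of receptor mRNA in both genotypes. Its share of the summed receptor RPKM was 63.4%, 61.4% and 56.3% in wild type and 57.2%, 66.0% and 55.0% in Ythdf2-/-. The means were 60.4% ± 3.62 and 59.4% ± 5.80 (SD, n = 3 each), and the exact two-sided permutation test gave p = 0.9, adjusted to 0.9 over the 11 shares and sums compared. Jag1 took 23.1%, 20.4% and 4.02% of the summed ligand RPKM in wild type and 22.8%, 7.81% and 32.1% in Ythdf2-/-. The 2 libraries with little Jag1 were again wild type replicate 3, where Dll3 took 32.6%, and Ythdf2-/- replicate 2, where Dll1 took 73.6%. The group means of Jag1 were 15.8% ± 10.3 and 20.9% ± 12.2 (SD, n = 3 each; exact two-sided permutation p = 0.6, adjusted to 0.9). With 3 libraries against 3 this test cannot go below 0.1.

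**Figure D2:**
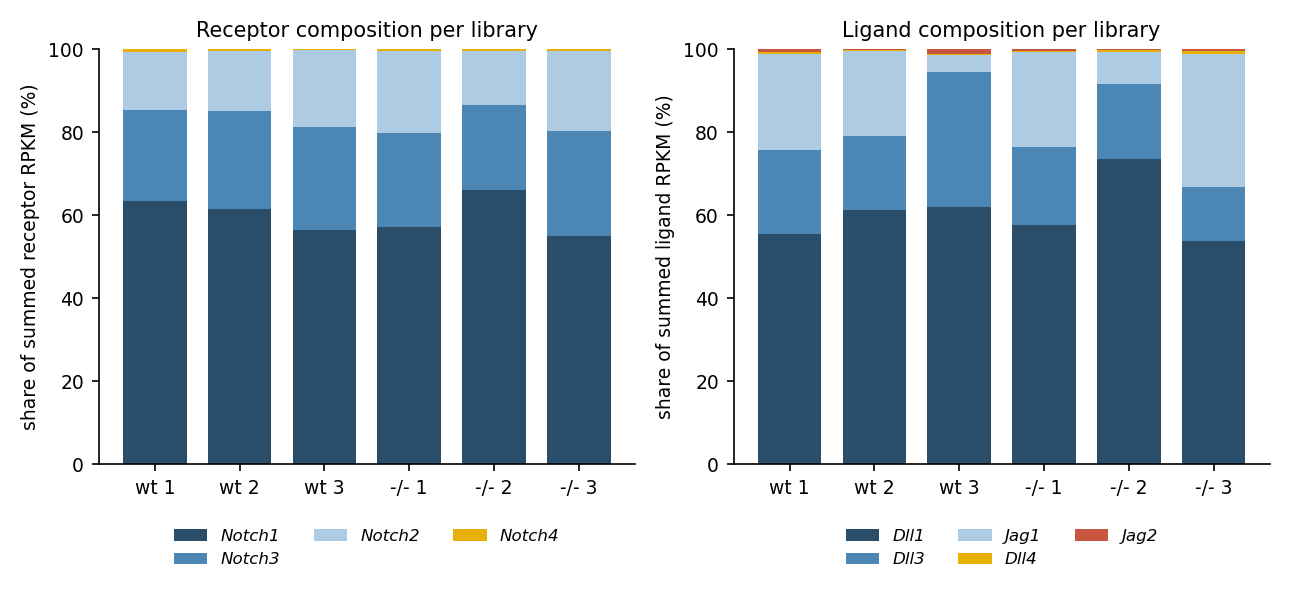
Composition of the receptor mRNAs (left) and of the ligand mRNAs (right) in each library, as the share of the summed RPKM in percent; wt is wild type, -/- is Ythdf2-/-, and the number is the replicate. Notch1 holds 55.0% to 66.0% of the receptors in every library, while the share of Jag1 among the ligands runs from 4.02% to 32.1%.

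Over all 6 libraries, 0 of the 8 genes tested passed an adjusted p of 0.05 in edgeR's quasi-likelihood test, where the share over all genes was also 0%. None had an unadjusted p under 0.05 either, against 3.63% of all genes tested, and none had its 3 Ythdf2-/- libraries all above or all below the wild type libraries, against 10.2%. The log2 fold change was above 0 for 6 of the 8 (Notch1, Notch2, Notch3, Notch4, Dll1 and Jag1) and below 0 for Dll3 and Rbpj. Each was smaller in size than its SE. The median was 0.18 for the 8 genes and -0.01 for all genes tested. The 95% intervals reached from -1.57 for Dll3 to 1.72 for Jag1.

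**Figure D3:**
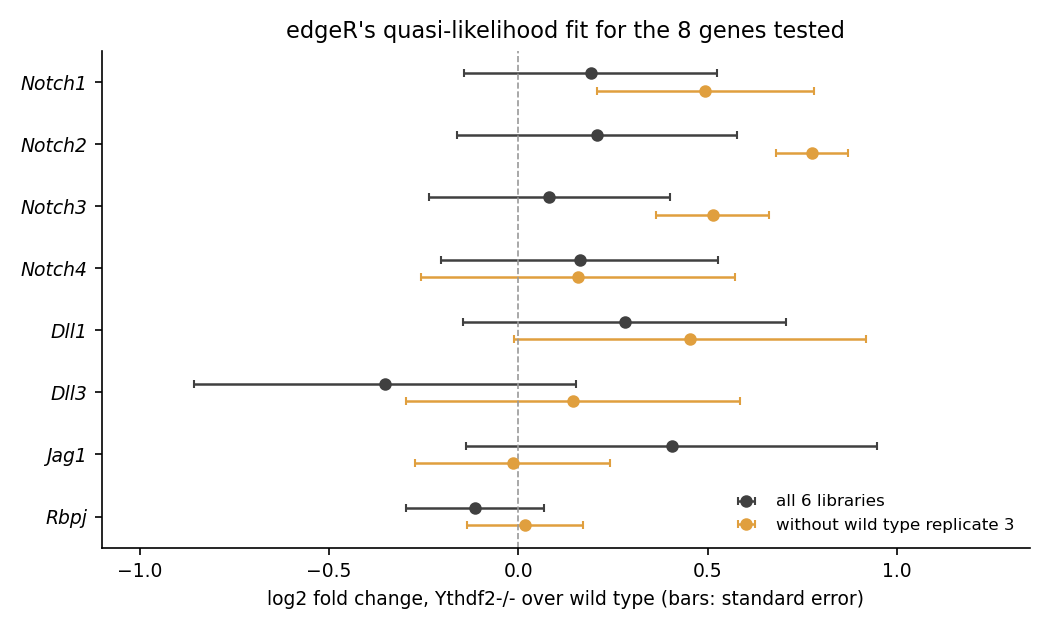
Log2 fold change of Ythdf2-/- over wild type with its standard error for the 8 genes tested, from edgeR's quasi-likelihood fit. Black points use all 6 libraries and orange points leave out wild type replicate 3; without it the 3 larger receptors move up, Notch2 from 0.21 to 0.77 with an SE of 0.09, and Dll3, Jag1 and Rbpj move across 0.

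Wild type replicate 3, which stood apart on all genes, was the highest wild type library for 8 of the 10 genes, and the comparison was refitted without it. Notch2 was then at 62.1 and 62.7 CPM in wild type against 100 to 111 CPM in Ythdf2-/-, and its log2 fold change was 0.77 (SE 0.09, 95% interval 0.55 to 1.004). The unadjusted p was 0.000146 and the adjusted p 0.14, so it did not pass (edgeR's quasi-likelihood test with Benjamini-Hochberg adjustment). Notch3 had a log2 fold change of 0.51 (SE 0.15, adjusted p = 0.219) and Notch1 one of 0.49 (SE 0.29, adjusted p = 0.429) in the same edgeR fit. Every Ythdf2-/- library was above both remaining wild type libraries for Notch1, Notch2 and Notch3, as it was for 18.8% of all genes in that fit. Of the 8 genes tested in both fits, 2 had an unadjusted p under 0.05 and both were higher in Ythdf2-/-. That share of 25% stands beside 16.6% of all genes in the same fit, 8.03% higher and 8.58% lower. Dll4 passed the filter in this fit only through its Ythdf2-/- reads and is not counted. The log2 fold change was 0.45 for Dll1, 0.14 for Dll3 and -0.02 for Jag1, whose 0.40 over all 6 libraries thus rested on wild type replicate 3. With sample quality weights in limma-voom, which gave that library a weight of 0.0957, Notch2 was the 1 gene of the 8 tested with an adjusted p under 0.05 (0.0355), where 1.15% of all genes passed. The part of the oligodendrocyte, neuronal and astroglial markers of that library in these levels was not tested. In such bulk libraries fewer cells of a type and less RNA per cell cannot be told apart.

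The presence of Y-linked reads also cut across the genotypes. Among the 3 libraries with such reads, log2 CPM of Notch2 was 0.68 higher in Ythdf2-/- than in wild type, and among the 3 without them the difference was -0.47, with wild type replicate 3 the only wild type library there. Notch3 differed likewise, by 0.41 and -0.49, and Notch1 by 0.08 and -0.15. For Dll3 the differences were -0.82 and -0.74, and for Jag1 they were 0.29 and 1.80, of the same sign in both sets. Each of these values sets 1 library of one genotype against 2 of the other and has no test, and the Y-linked reads and the odd wild type library cannot be told apart in the second set.

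Few of the other pathway genes had small p-values over the 6 libraries. Of 79 further pathway genes listed by role, 78 were in the tables and 68 were tested: 39 had a log2 fold change above 0 and 29 below, and 1 (1.47%) had an unadjusted p under 0.05, against 3.63% of all genes. The median was 0.02. Without wild type replicate 3, 18 of the 68 had an unadjusted p under 0.05, 12 higher and 6 lower, a share of 26.5% beside 16.6% of all genes, and 0 passed after adjustment in edgeR (smallest adjusted p = 0.153).

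Upstream of the receptors, none of the enzymes that sugar-coat and cut Notch had an unadjusted p under 0.05 over all 6 libraries. All 5 glycosylation genes had a log2 fold change above 0, between 0.03 and 0.12, with 0.03 for Pofut1, which adds O-fucose, and 0.12 for Mfng. Lfng, the fringe enzyme that shifts Notch towards delta ligands, was at 189, 187 and 40.4 CPM in wild type and 137, 123 and 174 CPM in Ythdf2-/-. It was low in wild type replicate 3, where Jag1 was also low, and its log2 fold change turned from 0.06 to -0.38 without that library (adjusted p = 0.299 in edgeR). Of the 10 cleavage genes 6 were above 0 and 4 below, and Furin, a protease that cuts Notch on its way to the surface, went from 0.09 to 0.38 without wild type replicate 3 (adjusted p = 0.252 in edgeR). Adam10, the protease of the first ligand-induced cut, had a log2 fold change of -0.02 (SE 0.18). The gamma-secretase subunits Aph1a and Ncstn were each at 0.20 (SE 0.13 and 0.14). Their groups did not overlap, which also held for 10.2% of all genes tested. The largest log2 fold change in size of the 10 was that of Psen2, a catalytic subunit, at -0.26 (SE 0.44). It turned to 0.36 (SE 0.23) without wild type replicate 3.

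In the cells that send the signal, ligand activity depends on endocytosis. Of 6 such genes 5 were above 0 and 1 below, and 0 had an unadjusted p under 0.05. Without wild type replicate 3, 3 of the 6 did (Epn1 and Mib2 higher, Neurl1a lower), against 16.6% of all genes. Epn1, an epsin of the endocytic coat, was at 146, 158 and 153 CPM in wild type and 175, 189 and 182 CPM in Ythdf2-/-, so its groups did not overlap (10.2% of all genes tested), with a log2 fold change of 0.26 (SE 0.11). Neurl1a, a ubiquitin ligase, was at 11.9, 10.0 and 2.93 CPM against 2.73, 7.18 and 5.07 CPM. Of the 5 non-canonical ligand genes tested 3 were above 0 and 2 below. The most abundant were Cntn1, with a log2 fold change of 0.04 (SE 0.24), and Dner, with 0.03 (SE 0.17). Those with the smallest p were Cntn6, at -0.57 (SE 0.33), and Mfap2, at -0.57 (SE 0.81). Cntn6 was at 7.79, 8.24 and 8.42 CPM in wild type and 3.24, 7.03 and 6.11 CPM in Ythdf2-/-, so its groups did not overlap (10.2% of all genes tested).

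Downstream, 5 of 10 genes of receptor trafficking and turnover were above 0 and 5 below. Nrarp, a feedback inhibitor that is itself a Notch target, had a log2 fold change of 0.32 (SE 0.21), and Itch, a ubiquitin ligase of Notch, one of -0.04 (SE 0.10). Of 18 nuclear cofactors 7 were above 0 and 11 below. The corepressor Ncor1 was the most abundant, with a log2 fold change of 0.10 (SE 0.18), and of 0.29 (SE 0.097) without wild type replicate 3. Without wild type replicate 3, 9 of the 18 cofactors had an unadjusted p under 0.05, against 16.6% of all genes, 7 higher (Maml2, Crebbp and Spen among them) and 2 lower (Hdac1 and Hdac2), named here after their values were seen. Spen, a corepressor partner of Rbpj, was at 140 and 126 CPM in wild type replicates 1 and 2, at 298 in replicate 3 and at 181 to 197 CPM in Ythdf2-/-. Its values thus followed the pattern of Notch2.

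Among 10 target genes tested 5 were above 0 and 5 below. Gfap, an astroglial filament gene also driven by Notch, was the 1 gene with an unadjusted p under 0.05, with a log2 fold change of -4.22 (SE 1.30, adjusted p = 0.999 in edgeR). It was at 437, 625 and 3046 CPM in wild type and 127, 87.7 and 5.55 CPM in Ythdf2-/-. The groups did not overlap, as was so for 10.2% of all genes tested. Without wild type replicate 3 its log2 fold change was -2.85 (adjusted p = 0.254 in edgeR). Hes5, a direct target, was at 31.1, 27.9 and 219 CPM in wild type and 68.8, 114 and 18.2 CPM in Ythdf2-/-, high in the same 2 libraries as Notch1. Hes1, another direct target, did not follow Notch1 in this: it was at 28.1, 24.3 and 69.7 CPM in wild type and 25.8, 16.7 and 34.8 CPM in Ythdf2-/-, lowest in Ythdf2-/- replicate 2. Of the 2 most abundant targets, Fabp7 had a log2 fold change of 0.14 (SE 0.45), and of -0.22 without wild type replicate 3. Ccnd1, a cyclin of the G1 phase, was at 1986, 1685 and 27.9 CPM in wild type and 1008, 679 and 1113 CPM in Ythdf2-/-, and its log2 fold change was -0.40 over all 6 libraries and -0.98 without wild type replicate 3 (adjusted p = 0.182 in edgeR). Of the 5 proneural genes tested, which Hes proteins repress, 4 were above 0 and 1 below. Neurog2 had the largest log2 fold change of them, 1.58 (SE 0.79), at levels under 5 CPM in every library. It was at 0.51, 0.92 and 1.19 CPM in wild type and 4.52, 2.89 and 0.48 CPM in Ythdf2-/-. The groups overlapped, and Ythdf2-/- replicate 3 was the lowest library.

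**Figure D4:**
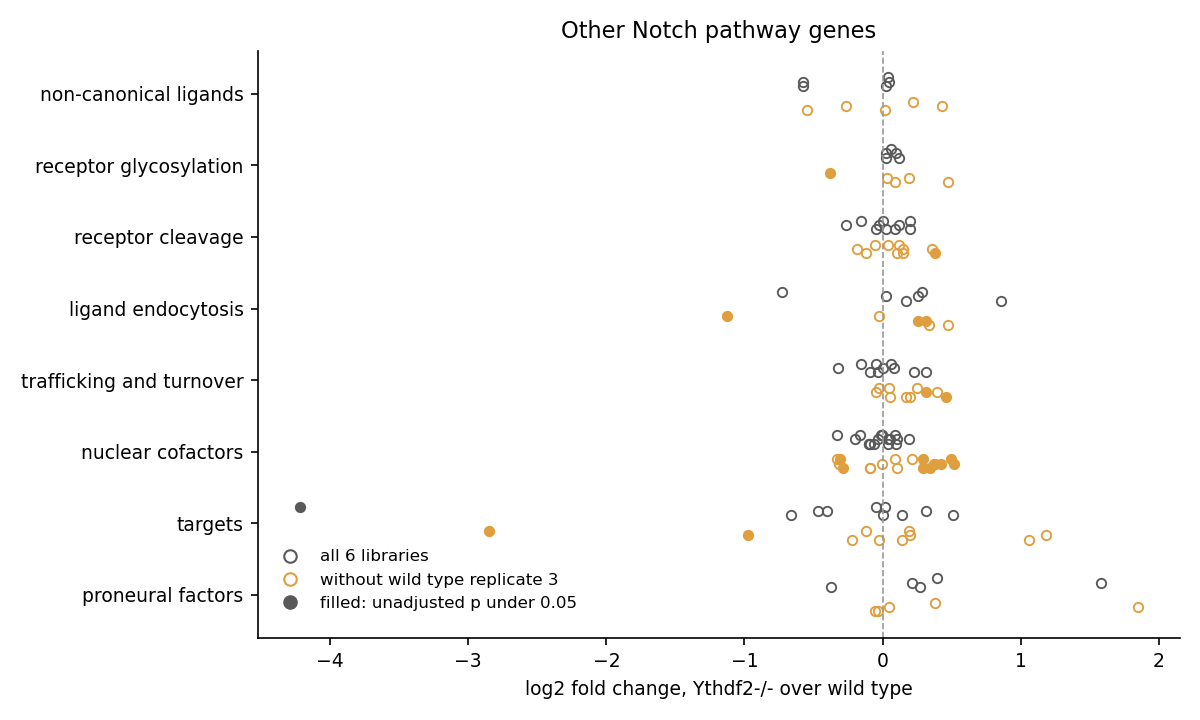
Log2 fold change of Ythdf2-/- over wild type for 68 other genes of the Notch pathway, by role; each circle is a gene, dark for all 6 libraries and orange without wild type replicate 3, and filled circles have an unadjusted p under 0.05 in edgeR. With all 6 libraries 1 circle is filled (Gfap, at -4.22), and without wild type replicate 3 there are 18. Nrarp is plotted in both lists that hold it.

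Genes with the closest pattern were found by the root mean square difference of log2 CPM, centred on each gene's mean, over the 6 libraries. For Notch1 they were Jarid2 (0.063), Rgs12 (0.069) and Kdm4a (0.073), where the median over 13111 genes was 0.474. For Dll1 they were Rap1gap (0.078), Mad2l2 (0.085) and Trim36 (0.10), with a median of 0.579. For Jag1 they were Mmp15 (0.046), Gbp7 (0.058) and Eif4ebp1 (0.075), with a median of 0.831. Mmp15, for one, was at 571, 524 and 122 CPM in wild type and 573, 347 and 632 CPM in Ythdf2-/-, low in the same 2 libraries as Jag1. Between the 10 genes themselves, Notch2 and Notch3 were 0.184 apart, Notch1 and Notch3 0.194, Dll1 and Notch1 0.235, and Dll1 and Jag1 1.15. The points share 6 libraries, among them the odd one, and the distances are descriptions.

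Notch3 is also made by mural cells of vessels, and Pdgfrb, one of their defining markers, was at 31.8 CPM in wild type replicate 3 against 0.15 to 3.5 CPM in the other 5, where Notch3 was also lower. Of the 10 mural markers, 5 had their highest value in wild type replicate 3 and 4 their lowest, Acta2 among them at 0.27 CPM against 0.44 to 2.74 CPM. The summed level of the 10 mural markers was 106 to 144 CPM in wild type and 117 to 151 CPM in Ythdf2-/-, most of it Cspg4, which oligodendrocyte precursors also make. The part of such cells in the level of Notch3 was not tested. The 10 microglia and macrophage markers summed to 3.48 to 4.85 CPM, with C1qa, C1qb and Ptprc at no read.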

How the data were processed

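For each input library the authors deposited raw counts per RefSeq symbol, made from TopHat alignments on mm10; featureCounts is among the tools of the submitters' processing notes, without a version. The authors also deposited estimated counts (expected counts), TPM and FPKM in RSEM-style tables (Bowtie2 2.2.9 and RSEM 1.2.15 in the same notes). The expected counts summed to 1.97% to 2.40% of the raw counts, so FPKM served only as an alternative and TPM was not used.

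Groups came from the sample labels. Genes passing filterByExpr were fitted with edgeR 4.0.16 in R 4.3.3, on TMM-normalised counts with a robust quasi-likelihood fit. The model held genotype alone, and p-values were adjusted by Benjamini-Hochberg over all 13112. Alternatives were DESeq2 1.42.0, limma 3.58.1 (voom), other normalization and filter, a replicate block, a Y-linked term (more than 3 reads) and each library left out. Scripts were tested on simulated data. CPM were TMM-scaled; RPKM divided them by merged RefSeq exon length. Log2 CPM used a prior count of 2. Intervals are 95%. The genes and lists were chosen with earlier results of these data known. Named by rule were the 10 genes, Ythdf2, the 2 most abundant genes and the 2 with the smallest p of each pathway list, and the 3 closest patterns of Notch1, Dll1 and Jag1. Other genes were named after their values were seen. Some genes of the pathway lists are not reported here by name.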

Additional observations from a re-analysis of the deposited data

How the results depend on the processing

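Against 0 genes called by edgeR, DESeq2 called 31, RLE factors 1, no filter on low counts 1, limma-voom with quality weights 151, the Y-linked term 13 and the fits without 1 library 0 to 2. Of the receptors, ligands and Rbpj, 1 passed adjustment with quality weights (Notch2) and 0 in every other fit. Their number at an unadjusted p under 0.05 was 2 with quality weights, 1 with the Y-linked term (Dll3) and 0 to 2 without 1 library (2 without wild type replicate 3). For the 68 other pathway genes it was 2 in DESeq2, 19 with quality weights, 8 with the Y-linked term, 0 to 18 without 1 library and 0 with the replicate block. Deviations of same-numbered libraries from their genotype means had correlations of -0.25, -0.24 and -0.39. Because they were centred within each genotype, these values cannot show whether the numbers pair libraries, and pairing was not tested. The replicate block changed no call among the 8 genes tested.

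Several small log2 fold changes crossed 0. The Y-linked term gave -0.013 for Notch1, -0.032 for Notch3 and -0.059 for Dll1. With the same term Dll3 was at -0.76 and Jag1 at 1.04, against -0.35 and 0.40 in the main fit. Leaving out 1 library gave -0.13 to 0.49 for Notch1, -0.0085 to 0.77 for Notch2, -0.10 to 0.51 for Notch3, -0.041 to 0.41 for Notch4, -0.33 to 0.57 for Dll1, -0.82 to 0.14 for Dll3, -0.016 to 0.74 for Jag1 and -0.25 to 0.017 for Rbpj. The negative values of Notch1 and Dll1 came without Ythdf2-/- replicate 2, and the sign of Dll3, Jag1 and Rbpj turned without wild type replicate 3. The median of the receptors, ligands and Rbpj tested in each fit ran from -0.13 without Ythdf2-/- replicate 2 to 0.45 without wild type replicate 3. Both of these fits tested 9 genes, with Jag2 added in the first and Dll4 in the second, so the gene sets differ. Over the genes of the main fit alone, the median without wild type replicate 3 was 0.305. Within the libraries lacking Y-linked reads the differences were -0.15 for Notch1, -0.47 for Notch2 and -0.49 for Notch3, and within those with them -0.054 for Notch4 and -0.39 for Dll1; this split was chosen after seeing the data.

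On log2(FPKM + 1) the values were -0.27 for Notch2, -0.87 for Notch3, -0.68 for Notch4, 0.80 for Dll3 and 0.13 for Rbpj, and on log2(FPKM + 0.1) they were -1.05, -2.65, -2.29, 0.91 and 0.15. Dll1 kept its sign at 0.92 and 2.71, as did Jag1 at 0.36 and 1.17 and Notch1 at 0.36 and 0.42. From FPKM the Notch1 share was 46.9% in wild type and 80.9% in Ythdf2-/-, a difference of 34.0 percentage points (exact permutation p = 0.1, the smallest possible), and the Jag1 share differed by -3.83. These tables hold about 2% of the reads, and the part of that in the difference was not tested. Without 1 library the share difference ran from -4.25 to 1.23 points for Notch1 and from -0.83 to 11.6 points for Jag1.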
